A study of Homo sapiens with 6 samples.

Results

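The genes described here are 10 genes of the heat-shock response: the transcription factors HSF1 and HSF2, the cytosolic HSP90 chaperones HSP90AA1 and HSP90AB1, HSPH1, the co-chaperone BAG3, the small heat-shock proteins HSPB1 and CRYAB, and the mitochondrial chaperonin pair HSPD1 and HSPE1. They were chosen by name, and all 10 were found among the 23686 genes counted. The RNA came from HEK293 cells, an established human embryonic kidney line, marked with green fluorescent protein (GFP). For the co-culture group, 3 libraries were made from GFP-positive cells after 10 h in a shared culture with ROS-producing HEK293 (+DAAO) cells and 25 µM D-alanine. ROS are reactive oxygen species, and DAAO usually stands for D-amino acid oxidase, which makes hydrogen peroxide from D-amino acids. The control group held 3 libraries of GFP-positive cells, labelled wild type, and the GFP-positive cells of both groups were collected by fluorescence-activated sorting. The labels carry 1 treatment text for all 6 samples, so whether the controls were given D-alanine or grown beside partner cells is not stated. Nothing states that the samples of a group came from separate cultures, so p-values measure the spread between these samples, which may be technical.

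HSF1 is the main transcription factor of the heat-shock response. In unstressed cells it is held inactive, in part by HSP90 and HSP70, and when misfolded proteins occupy these chaperones it forms trimers that bind heat-shock elements, inverted repeats of the unit GAA, in front of chaperone genes. HSF1 is controlled largely at the level of the protein, so its RNA need not follow its activity, and its targets are the usual RNA readout. HSP90AA1 is the stress-inducible cytosolic HSP90 and HSP90AB1 the more constitutive one.

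Heat-shock elements were looked for in RefSeq start-site windows of GRCh38.p14, from 250 bases before to 50 bases after each listed start, because the targets among these genes are those the factor binds. Windows were matched for 8 of the 10 genes, all but HSF1 and CRYAB. The 2-unit forms GAANNTTC and TTCNNGAA, which read the same on both strands, occurred in 13.5% of all 35114 windows. The 3-unit forms GAANNTTCNNGAA and TTCNNGAANNTTC, which are each other's reverse complement and contain the 2-unit forms, occurred in 0.49%. HSP90AA1, HSP90AB1 and HSPD1 each had 1 window with a 3-unit match, HSPB1 had a 2-unit match only, and HSF2, HSPH1, HSPE1 and BAG3 had neither form in these windows. The matches are shown 5′ to 3′ on the strand of the gene with the matched bases in capitals, followed by the HSPA1A match, since this HSP70 gene is the heat-inducible gene with the clearest difference between the groups. Other HSP70 and DNAJ genes were scanned too, and their matches are not printed. HSPA1B had a 2-unit match in its 1 window, and DNAJB1 had 2-unit matches in 2 of its 3 windows. HSPA8 had a 3-unit match in its 1 window. HSPA1B stood higher in every co-culture library than in any control, and HSPA8 and DNAJB1 stood lower. A match describes the letters and is not evidence of binding.
HSP90AA1 (chr14:102087104-102087133, minus strand, 88 bases before the second of its 2 listed starts): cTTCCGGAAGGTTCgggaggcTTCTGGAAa
HSP90AB1 (chr6:44247763-44247858, plus strand, 165 and 112 bases before the last of its 3 listed starts): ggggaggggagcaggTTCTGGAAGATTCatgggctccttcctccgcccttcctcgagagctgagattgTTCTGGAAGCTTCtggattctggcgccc
HSPD1 (chr2:197500062-197500090, minus strand, 245 bases before the second of its 2 listed starts): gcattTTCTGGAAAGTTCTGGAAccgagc
HSPB1 (chr7:76302476-76302513, plus strand, 182 bases before its start): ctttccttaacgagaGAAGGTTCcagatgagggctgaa
HSPA1A (chr6:31815422-31815459, plus strand, 106 bases before its start): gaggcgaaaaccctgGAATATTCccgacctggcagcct
HSPD1 and HSPE1 are transcribed away from each other. Between their starts lie 104 or 538 bases, depending on which of the 2 listed HSPD1 starts is taken. The HSPD1 match lies in the longer of these gaps but not in the shorter, so it is downstream of the other listed HSPD1 start. The printed stretches of HSP90AA1 and HSPD1 lie wholly in annotated exons (30 of 30 and 29 of 29 bases). Those of HSP90AB1, HSPB1 and HSPA1A lie outside exons.

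The libraries held 19091085 to 36250314 gene-assigned reads, so 1 read was worth 0.0276 to 0.0524 CPM, a gene's reads relative to its library's total. Levels below are CPM scaled by trimmed means of M-values (TMM). The HEK293 markers VIM, KRT8, KRT18, NEFM, NEFL, PAX2 and LIN28B were all detected, from 5.80 CPM for PAX2 to 1318 CPM for VIM, the blood, endothelial and liver markers PTPRC, PECAM1 and ALB did not exceed 0.192 CPM, and the fibroblast marker COL1A1 stood at 31.0 to 44.4 CPM. The human DAO gene had 0 reads in all 6 libraries, although a transgene of another sequence would not be counted there. The libraries fell into a pair of classes by a technical measure: reads on the forward strand, opposite to the counted one, had a median share per gene of 0.127% and 0.216% in co-culture libraries 2 and 3, and 1.59% to 1.79% in co-culture library 1 and the 3 controls. Since both libraries of the low class are co-culture samples, the groups cannot be compared inside it, and a model with an added term for strand class is reported alongside.

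None of the 9 genes with enough reads to be tested changed past the threshold. In edgeR's quasi-likelihood test with Benjamini-Hochberg adjustment over 14582 genes at 0.05, 0 of the 9 were called, against 4.83% of all tested genes (0 higher against 2.66%, and 0 lower against 2.17%). DESeq2 and limma-voom also called 0 of the 9. At an unadjusted p under 0.05 there was 1 of the 9, HSF1, against 23.2% of all tested genes. The groups did not overlap for 3 of the 9, HSF1, HSP90AA1 and HSPH1, against 29.3% of all tested genes, so neither share stood far from the background. The log2 fold change, co-culture minus control, was above 0 for 8 of the 9 with a median of 0.10, and above 0 for 49.6% of all tested genes with a median of -0.002. Without control 3 it was above 0 for 5 of the 9 with a median of 0.06, without control 1 for 8 with a median of 0.06, and with total counts or a term for strand class for 6, with medians of 0.07 and 0.11. Unadjusted 95% intervals of the fold change reached no higher than 1.38, for HSPE1, and no lower than 0.781, for HSF1. In RNA taken in bulk, fewer cells with a transcript and less RNA per cell cannot be told apart.

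Of the transcription factors, HSF1 stood lower in every co-culture library than in any control, but the difference did not pass the threshold. Co-culture libraries 1, 2 and 3 had 40.9, 39.7 and 45.9 CPM of HSF1, and controls 1, 2 and 3 had 50.1, 46.1 and 48.6 CPM. The groups did not overlap, but co-culture 3 and control 2 lay next to each other. The log2 fold change was -0.19 (SE 0.08, 95% interval -0.36 to -0.02), with p-values of 0.0278 before and 0.159 after adjustment (edgeR). It stayed below 0 in all 14 other settings, from -0.26 to -0.15, with adjusted p-values from 0.106 to 0.471.

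HSF2, a related factor that can form mixed trimers with HSF1, overlapped between the groups. Its co-culture libraries had 84.2, 88.8 and 83.1 CPM and its controls 87.0, 87.3 and 80.1 CPM, so the lowest and highest co-culture values lay above the lowest and highest controls. It differed by a log2 fold change of 0.01 (SE 0.06, 95% interval -0.13 to 0.15, edgeR adjusted p 0.944). The ratio of HSF1 to HSF2 reads within a library, which does not depend on scaling, was 0.486, 0.448 and 0.552 in co-culture libraries 1, 2 and 3, and 0.576, 0.527 and 0.606 in controls 1, 2 and 3. The mean log2 ratio was -1.02 ± 0.15 in co-culture and -0.81 ± 0.10 in the controls (SD, n = 3 each), a difference of -0.21 with an exact two-sided permutation p of 0.2 (0.333 adjusted over the 5 ratios computed), and -0.13 without co-culture 2. With 3 against 3 samples, this test cannot give a p below 0.1.

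**Figure D1:**
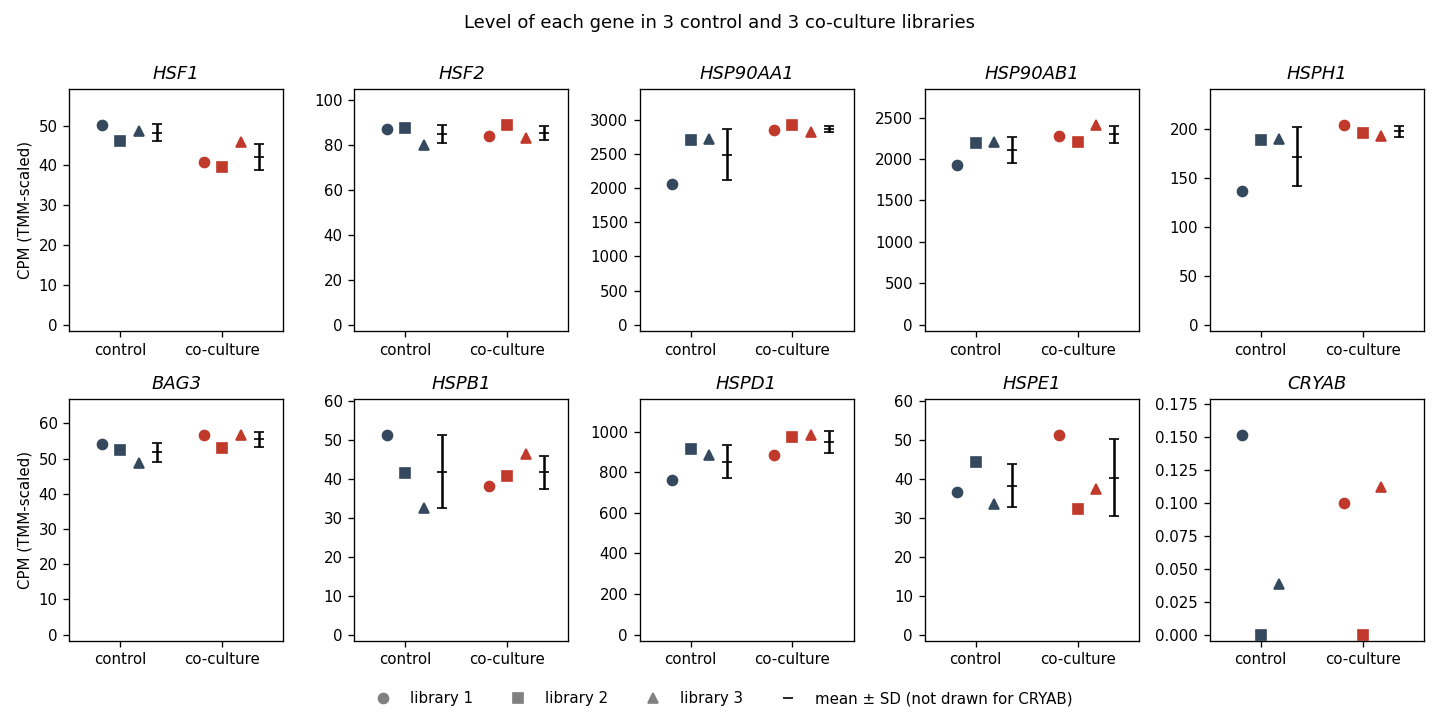
TMM-scaled CPM (linear axes from 0) of the 10 genes in each of 3 control (dark) and 3 co-culture (red) libraries, with the mean and SD of each group beside the points, except for CRYAB. Control library 1 (circle) is the lowest of the 6 for HSP90AA1, HSP90AB1, HSPH1 and HSPD1, at 2055, 1926, 137 and 762 CPM, and CRYAB stays at or under 0.152 CPM.

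The inducible HSP90 gene HSP90AA1 had its highest 3 values in co-culture, though controls 2 and 3 were close to them. Co-culture libraries 1, 2 and 3 had 2851, 2918 and 2823 CPM of HSP90AA1. Controls 1, 2 and 3 had 2055, 2695 and 2709.5 CPM. Control 1 stood apart as the lowest, and the gap between the groups was set by control 3 and co-culture 3. The log2 fold change was 0.20 (SE 0.10, 95% interval -0.02 to 0.43, edgeR adjusted p 0.257). Without control 1 it was 0.08, with an edgeR adjusted p of 0.254.

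HSP90AB1, the constitutive form, overlapped between the groups. Its co-culture libraries had 2280.3, 2199 and 2408 CPM, and its controls 1926, 2197 and 2207 CPM. Again control 1 was the lowest, and co-culture 2 lay between controls 2 and 3. For HSP90AB1 the log2 fold change was 0.12 (SE 0.08, 95% interval -0.05 to 0.29, edgeR adjusted p 0.370), and without control 1 it was 0.06. The ratio of HSP90AA1 to HSP90AB1 reads was 1.25, 1.33 and 1.17 in co-culture libraries 1, 2 and 3 and 1.07, 1.23 and 1.23 in the controls. The difference of the mean log2 ratios was 0.09 (0.32 ± 0.09 against 0.23 ± 0.12, SD, n = 3 each), with an exact two-sided permutation p of 0.4 (0.500 adjusted over 5). It was 0.02 without control 1 and 0.05 without co-culture 2.

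HSPH1, the HSP110-class exchange factor that releases nucleotide from HSP70, was lowest in control 1, as HSP90AA1 was. Its co-culture libraries 1, 2 and 3 had 204, 196 and 193 CPM and its controls 137, 189 and 189.8 CPM. Control 1 was far below the other 5, and the other 2 controls were just below co-culture 3. The log2 fold change was 0.20 (SE 0.11, 95% interval -0.05 to 0.45, edgeR adjusted p 0.309), and without control 1 it was 0.06 with an edgeR adjusted p of 0.399. Across the 6 libraries, Pearson's r of log2 CPM between HSPH1 and HSP90AA1 was 0.99. Control 1 stood far below the other libraries for both genes, and r without it was not computed. The highest library differed, co-culture 1 for HSPH1 and co-culture 2 for HSP90AA1. HSP90AA1, HSP90AB1, HSPH1 and HSPD1 gave r from 0.84 to 0.99 with each other, and these 6 were the only ones above 0.8 of the 36 pairs of tested members. Control 1 was the lowest library for each of these genes, so these values too may depend on it.

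The ratio of HSPH1 to HSPA8, the constitutive HSP70 that HSPH1 serves, separated the groups. It was 0.181, 0.165 and 0.160 in co-culture libraries 1, 2 and 3 and 0.113, 0.127 and 0.125 in controls 1, 2 and 3. The mean log2 ratio was -2.57 ± 0.09 in co-culture and -3.04 ± 0.10 in the controls (SD, n = 3 each), a difference of 0.47. Its exact two-sided permutation p was 0.1, the smallest this design allows, and 0.250 adjusted over 5. HSPA8 was chosen after its values were seen, so this p is no support for a difference. HSPA8 itself was lower in every co-culture library, at 1175 ± 40.5 against 1405 ± 162 CPM (SD, n = 3 each), without passing the threshold in edgeR's test (log2 fold change -0.26, adjusted p 0.106), though DESeq2 called it lower. Control 1, the lowest library for HSPH1, was also the lowest control for HSPA8, so the ratio was less affected by it. Without control 1 the difference was 0.41, while the log2 fold change of HSPH1 alone was 0.06.

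BAG3, a co-chaperone that links HSP70 and the small heat-shock proteins to autophagy and is a strong heat-shock target, overlapped between the groups. Its co-culture libraries had 56.6, 53.1 and 56.8 CPM and its controls 54.2, 52.5 and 48.7 CPM. Co-culture 2 lay between controls 1 and 2. For BAG3 the log2 fold change was 0.10 (SE 0.07, 95% interval -0.05 to 0.25, edgeR adjusted p 0.398). The ratio of BAG3 to BAG1, the first-described member of the same family, was higher in all 3 co-culture libraries, at 1.54, 1.44 and 1.35 against 1.33, 1.28 and 1.06. The log2 difference was 0.24, with an exact two-sided permutation p of 0.1, the smallest possible, and 0.250 after adjustment over 5. BAG3 and BAG1 had the highest and lowest log2 fold changes of the 6 tested BAG genes, 0.10 and -0.13. The members and lists were chosen with earlier results of these data known, so this p is no support for a difference. Without control 3 this difference was 0.14, and the log2 fold change of BAG3 was 0.06.

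Among the small heat-shock proteins, which hold unfolded proteins without using ATP, HSPB1 (HSP27) did not separate the groups. Its co-culture libraries had 38.0, 40.6 and 46.3 CPM, and its controls 51.2, 41.5 and 32.5 CPM. The controls spanned the whole co-culture range, with control 1 the highest and control 3 the lowest of the 6. For HSPB1 the log2 fold change was 0.005 (SE 0.15, 95% interval -0.34 to 0.35, edgeR adjusted p 0.988), and it was 0.18 without control 1 and -0.15 without control 3. CRYAB (alpha-B crystallin) was not tested, with 2, 0 and 4 reads in co-culture libraries 1, 2 and 3 and 3, 0 and 1 reads in the controls. A count of 0 allows up to 3 reads, or 0.0828 to 0.157 CPM by library, so every library but co-culture 3, with 4 reads, was at or below that floor, and no fold is given. Such bounds cover counting error only. CRYAB and its head-to-head neighbour HSPB2 overlap on opposite strands in the GENCODE annotation, and HSPB2 had 0 reads in all 6 libraries.

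HSPD1 (HSP60) and HSPE1 (HSP10) form the chaperonin and its lid in the mitochondrial matrix, and neither passed the test. HSPD1 had 886, 976 and 986 CPM in co-culture libraries 1, 2 and 3 and 762, 915 and 884 CPM in controls 1, 2 and 3. Co-culture 1 lay between controls 2 and 3, so the groups overlapped. HSPD1 had a log2 fold change of 0.15 (SE 0.08, 95% interval -0.03 to 0.33, edgeR adjusted p 0.286), and without control 1 it was 0.08.

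HSPE1 had 51.2, 32.2 and 37.3 CPM in the co-culture libraries and 36.6, 44.3 and 33.6 CPM in the controls. Co-culture 1 was the highest and co-culture 2 the lowest of the 6. HSPE1 had a log2 fold change of 0.08 (SE 0.17, 95% interval -0.32 to 0.47, edgeR adjusted p 0.829), and without co-culture 1 it was -0.13. Co-culture 1 also had the highest share of multimapping reads, 8.42% against 6.48% to 7.03% in the other 5 libraries, and the part of that share in the HSPE1 value was not tested. The ratio of HSPD1 to HSPE1 reads ran from 17.3 in co-culture 1 to 30.3 in co-culture 2, and the controls lay within this range at 20.8, 20.6 and 26.3. The difference of the mean log2 ratios was 0.10, with an exact two-sided permutation p of 0.8 (0.800 adjusted over 5). It ran from -0.070 without co-culture 2 to 0.33 without co-culture 1, and across the 6 libraries r of log2 CPM between HSPD1 and HSPE1 was -0.10.

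The HSPE1 counts cover only part of the transcript. The gene set of the files holds a readthrough gene, HSPE1-MOB4, on the same strand, and reads in exons shared by overlapping genes are left uncounted as ambiguous. HSPE1-MOB4 had 0 reads in every library and MOB4 had 0 to 2, so the exons that HSPE1-MOB4 shares with either gene are hardly represented in the counts. Reads that match several places are also uncounted, and HSPE1, HSPD1, HSP90AA1 and HSP90AB1 have processed pseudogenes in the human genome, so the levels of these 4 genes are lower bounds.

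**Figure D2:**
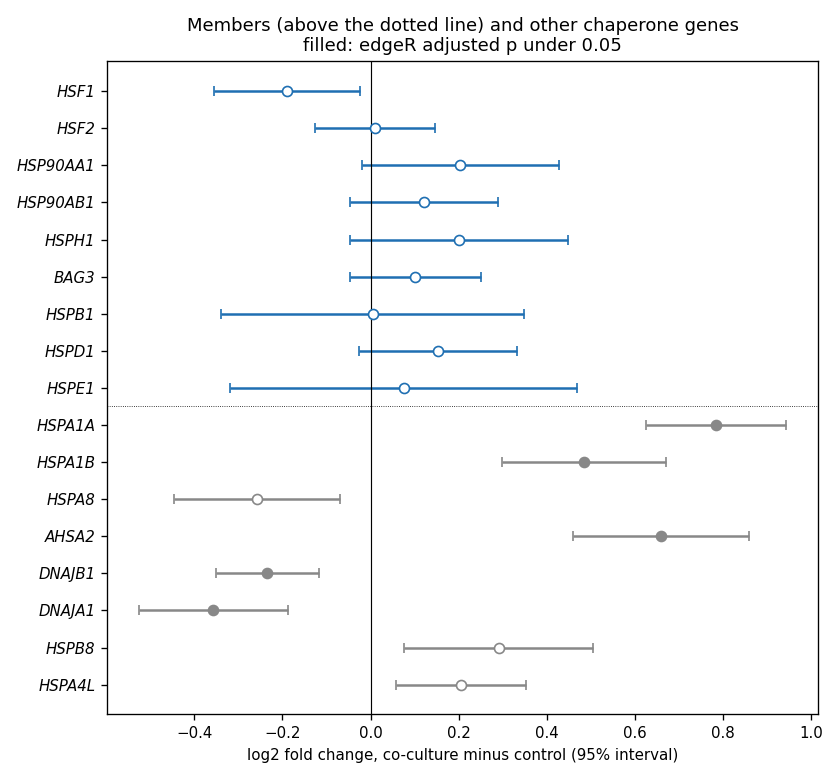
Log2 fold change, co-culture minus control, with its unadjusted 95% interval, for the 9 tested members (blue, above the dotted line) and 8 other genes of the chaperone lists (grey), filled where the edgeR adjusted p was under 0.05. No member is filled. HSPA1A, HSPA1B and AHSA2 (filled) lie right of every member's estimate, as do HSPB8 and, only just, HSPA4L (both open).

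Per kilobase of the principal GENCODE release 29 transcript, the order of the control levels was HSP90AB1 (789 ± 59.6 CPM per kilobase), HSP90AA1 (708 ± 106), HSPD1 (348 ± 32.9), HSPB1 (45.9 ± 10.3), HSPE1 (40.2 ± 5.83), HSPH1 (33.1 ± 5.80), HSF2 (32.1 ± 1.54), HSF1 (22.5 ± 0.949), BAG3 (20.1 ± 1.09) and CRYAB (0.0566 ± 0.0705, SD, n = 3 each). The ranges of mean ± SD overlapped for the HSP90 genes and for each pair of neighbours from HSPB1 to HSF2. The genes were measured in the same libraries, so these SDs may hold shifts that a library's genes share. Such an overlap therefore does not test a difference between genes, and none was tested. HSF1 and BAG3 overlapped over the 6 libraries, at 18.5 to 23.4 and 18.9 to 22.1 CPM per kilobase. HSPA8 stood between HSP90AA1 and HSPD1, at 570 ± 65.8. These levels assume that 1 transcript per gene carries the reads. The HSPE1 counts, which cover only part of the transcript, were divided by its full length of 950 bases. Levels of HSPE1, HSPD1 and the HSP90 genes are lower bounds, so their places in this order are not settled.

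The genes around the members were read from 12 lists of chaperones and heat-shock factors. Apart from the HSP70 and DNAJ lists, they hold 84 tested genes that are not members, of which 3 rose and 2 fell in edgeR's test at an adjusted p under 0.05, or 5.95% against 4.83% of all tested genes, and their median log2 fold change was -0.01. The 5 were AHSA2, HSPA1A and HSPA1B, which rose, and DNAJA1 and DNAJB1, which fell. Of the 4 HSP90 genes, 0 were called, and the endoplasmic reticulum form HSP90B1 and the mitochondrial form TRAP1 had log2 fold changes of 0.12 and 0.05. DESeq2 and limma-voom also called 0 of these 4, and 0 had an unadjusted p under 0.05 in edgeR's test.

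Of the 26 genes in the HSP90 co-chaperone list, 1 was called, or 3.85% against 4.83% of all tested genes. Whether the RNA of this gene, AHSA2, makes a working protein was not tested. AHSA2, a relative of the HSP90 ATPase activator AHSA1, had 73.5, 82.0 and 64.8 CPM in co-culture libraries 1, 2 and 3 and 45.3, 43.8 and 49.9 CPM in the controls. The groups lay well apart, and AHSA2 rose by 0.66 on the log2 scale (SE 0.09, 0.00433 as edgeR's adjusted p). The call was lost with a term for strand class (0.66, edgeR adjusted p 0.126) and without control 2 (0.62, 0.0503), and over the 14 settings its adjusted p ran from 2.13e-08 to 0.126. AHSA1 itself, which is the better studied activator, had a log2 fold change of 0.06 (edgeR adjusted p 0.583). The heat-inducible co-chaperones STIP1, FKBP4, CHORDC1 and PTGES3 had log2 fold changes of 0.002, -0.06, 0.05 and 0.13, none past the threshold.

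In the lists of HSF factors, HSF1 control, small heat-shock proteins, HSP110 proteins, mitochondrial folding and proteolysis, cytosolic chaperonin and BAG proteins, edgeR's test called 0 of 3, 0 of 12, 0 of 4, 0 of 4, 0 of 13, 0 of 9 and 0 of 6 tested genes, with 1, 4, 1, 1, 1, 0 and 0 at an unadjusted p under 0.05. Over all tested genes these shares were 4.83% and 23.2%. Of the genes in these lists limma-voom called 0, and DESeq2 called 1, CREBBP, a coactivator of HSF1 that was lower at a log2 fold change of -0.28 in edgeR's fit. Of the factors, HSF1 and HSF4, a relative known from the lens, marked the ends at -0.19 and 0.23. Of the genes tied to HSF1 control, HDAC6, a deacetylase, was highest at 0.18, and HSF2BP, which binds HSF2, was lowest at -0.73, at 1.64 against 2.71 CPM. HSPB8, the BAG3 partner among the small heat-shock proteins, had 39.0 ± 2.40 CPM in co-culture and 32.0 ± 4.29 in the controls (a log2 difference of 0.29 with SE 0.10 and an edgeR adjusted p of 0.108), and HSPB6 was lowest at -0.26, at less than 1 CPM in both group means. Of the 11 small heat-shock genes listed, 4 had enough reads to be tested. HSPA4L and HYOU1 marked the ends of the HSP110 list at 0.20 and -0.09. HSPD1 and GRPEL1, the exchange factor of mitochondrial HSP70, marked those of the mitochondrial list at 0.15 and -0.19. CCT6A and CCT6B marked those of the chaperonin at 0.11 and -0.23, and BAG3 and BAG1 those of the BAG family at 0.10 and -0.13.

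**Figure D3:**
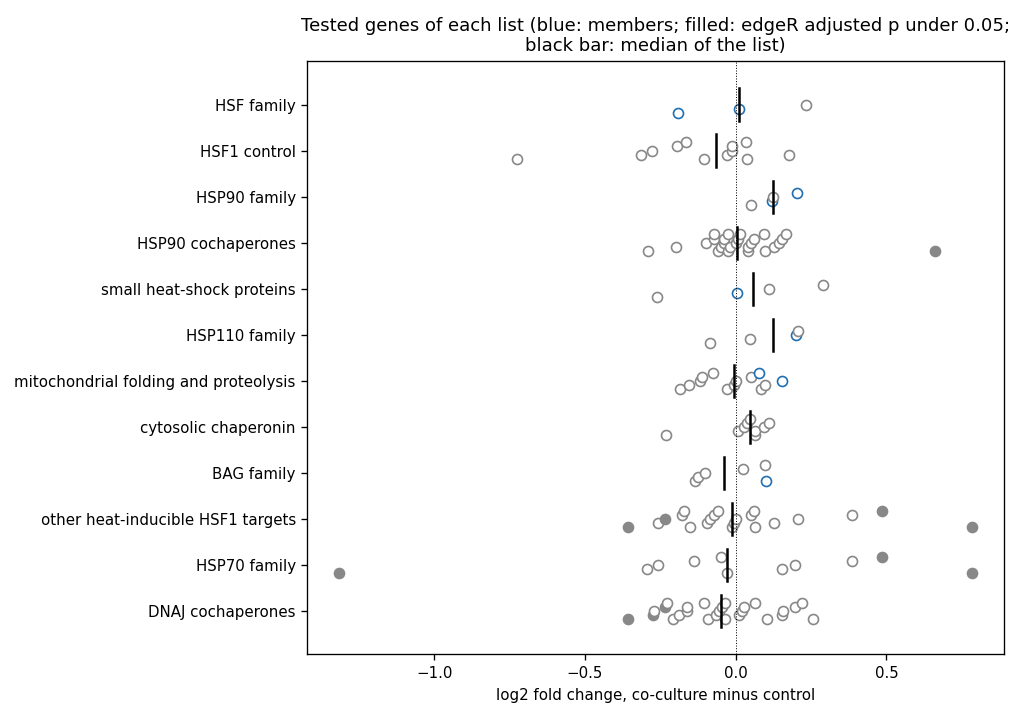
Log2 fold change, co-culture minus control, of every tested gene in the 12 lists (rows), with members in blue, other genes in grey, genes with an edgeR adjusted p under 0.05 filled, and the list's median as a black bar. The filled points are AHSA2 in the co-chaperone list and HSP70 and DNAJ genes, and list medians lie between -0.07 and 0.13.

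The heat-inducible HSF1 targets outside the members went in both directions. Of 21 tested genes in the list of such targets, 2 rose and 2 fell (19% against 4.83% of all tested genes), and the median was -0.01. HSPA6, an HSP70 gene outside that list, was called lower (log2 fold change -1.32, edgeR adjusted p 0.0338). HSPA1A, a stress-induced HSP70, had 265, 281 and 307 CPM in co-culture and 154, 171 and 170.4 CPM in the controls (log2 fold change 0.78, SE 0.07, 95% interval 0.63 to 0.94, edgeR adjusted p 0.000581), and it passed in all 14 other settings. HSPA1B rose by 0.48 on the log2 scale (edgeR adjusted p 0.0126). Reads that match both of these near-identical copies are uncounted, so their values rest on reads that tell the copies apart. Some reads may also be misassigned between them. The lower end of the HSPA1A interval lay above the upper ends of all 9 members' intervals.

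DNAJB1 and DNAJA1, HSP40 co-chaperones of HSP70 that heat shock usually raises, fell by 0.23 and 0.36 on the log2 scale (edgeR adjusted p 0.0338 and 0.0278). DNAJB1 had 129.5, 130.5 and 132 CPM in co-culture and 152, 156 and 154 CPM in the controls. DNAJA1 had 263, 246 and 245 CPM in co-culture against 285, 338 and 341 CPM, so the groups did not overlap for either gene. HSPA1B kept its call in 10 of 14 settings, DNAJA1 in 8 and DNAJB1 in 7, all in the same direction. Each of these 3 genes lost it with the strand-class term, without co-culture 2, without co-culture 3 and without control 2. DNAJA1 and DNAJB1 also lost it without co-culture 1 and with the replicate block (edgeR adjusted p 0.0905 and 0.110), and DNAJB1 without control 3. In the HSP70 list 3 of 11 tested genes were called (27.3%), HSPA1A and HSPA1B higher and HSPA6 lower at 0.692 against 1.73 CPM. In the DNAJ list 3 of 26 were called (11.5%), all lower (DNAJA1, DNAJB1 and DNAJC5). Of all tested genes 4.83% were called, and 0 of 9 members is not far from that share. The contrast with these lists is therefore not a result about the members. HSPA6 and DNAJC5 each kept the call in 8 of 14 settings. Both lost it with the replicate block (edgeR adjusted p 0.0753 and 0.0811), with the strand-class term (0.336 and 0.233) and without co-culture 1, co-culture 2 or control 2, HSPA6 also without co-culture 3 and DNAJC5 without control 3. Whether these shares differ was not tested.

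Genes with the pattern most like 3 of the members over the 6 libraries were found by Pearson's r of log2 CPM among 10489 other genes with at least 10 CPM. For HSP90AA1 they were FAM73A, LPGAT1 and ACVR1C, with r of 0.998, 0.996 and 0.996. For HSPH1 they were DCBLD2, ABCE1 and USP9X, with r of 0.999, 0.996 and 0.996. For HSF1 they were PNP, ZNF521 and CACFD1, with r of 0.994, 0.993 and 0.992. With 6 libraries such values are common: 537, 604 and 249 genes had an r above 0.9 with HSP90AA1, HSPH1 and HSF1. None of the 9 named genes passed edgeR's test, with adjusted p-values from 0.0732 to 0.543.

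In no setting was a member called, but single libraries moved the estimates. Leaving out control 1 brought HSP90AA1, HSP90AB1, HSPH1 and HSPD1 to between 0.06 and 0.08 and BAG3 to 0.14, while without control 3 BAG3 stood at 0.06. In the model with a term for strand class, where the difference rests on co-culture 1 against the controls, HSF1, HSP90AA1, HSP90AB1, HSPH1 and BAG3 stood at -0.24, 0.20, 0.11, 0.25 and 0.13, and HSF2, HSPB1, HSPD1 and HSPE1 at -0.01, -0.13, 0.05 and 0.43. The edgeR adjusted p-values of that fit ran from 0.315 to 0.981.

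**Figure D4:**
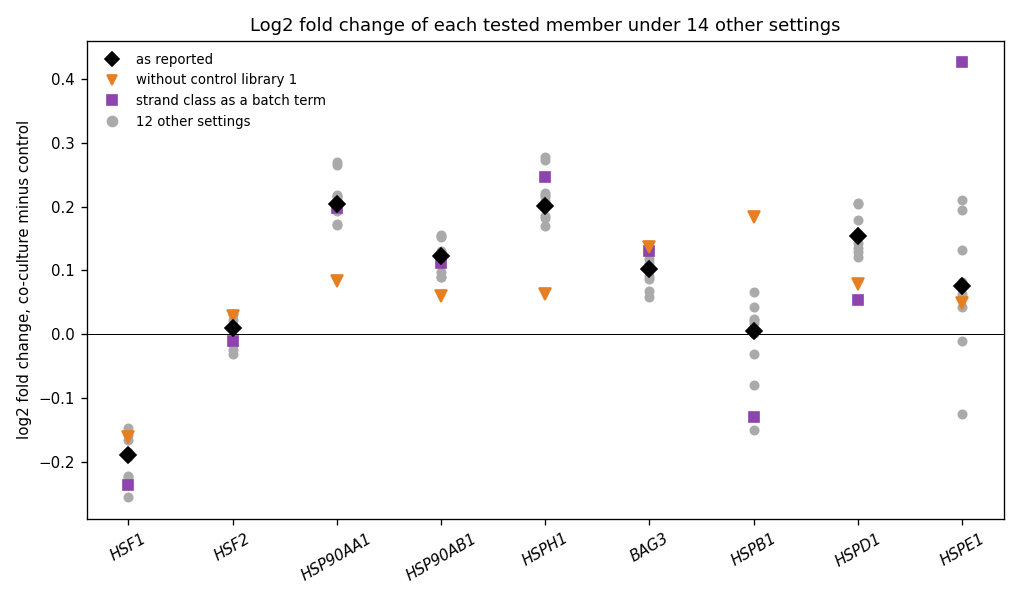
Log2 fold change, co-culture minus control, of the 9 tested members as reported (diamonds) and under 14 other settings, with the fit without control library 1 as orange triangles and the strand-class model as squares. HSF1 stays below 0 throughout, from -0.26 to -0.15, while HSPB1 and HSPE1 cross 0.

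The strand classes were set by each library's median forward share, so a split of single genes between them was built in. The HSP90 genes and HSPH1 split in this way. In co-culture 1 and controls 1, 2 and 3, 5.82%, 5.52%, 5.68% and 5.42% of the strand-assigned reads of HSP90AA1 were on the forward strand, where the median of 5032 abundant genes was 1.59% to 1.79%. In co-culture libraries 2 and 3 the share was 0.266% and 0.750%. HSP90AB1 had 4.42% to 5.38% in the same 4 libraries and 0.691% and 1.27% in the other 2, and HSPH1 had 3.79% to 4.83% against 0.266% and 0.432%. The split was not particular to these genes. HSPD1 had 2.67% to 3.01% in the same 4 libraries against 0.219% and 0.375%, and DNAJA1 had 5.33% to 5.76% against 0.308% and 0.534%. HSPB1 stayed at or under 0.376% in all 6. With counts taken without regard to strand, the log2 fold changes of HSP90AA1, HSP90AB1 and HSPH1 were 0.17, 0.10 and 0.18, beside 0.20, 0.12 and 0.20 from the reverse strand.

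**Figure D5:**
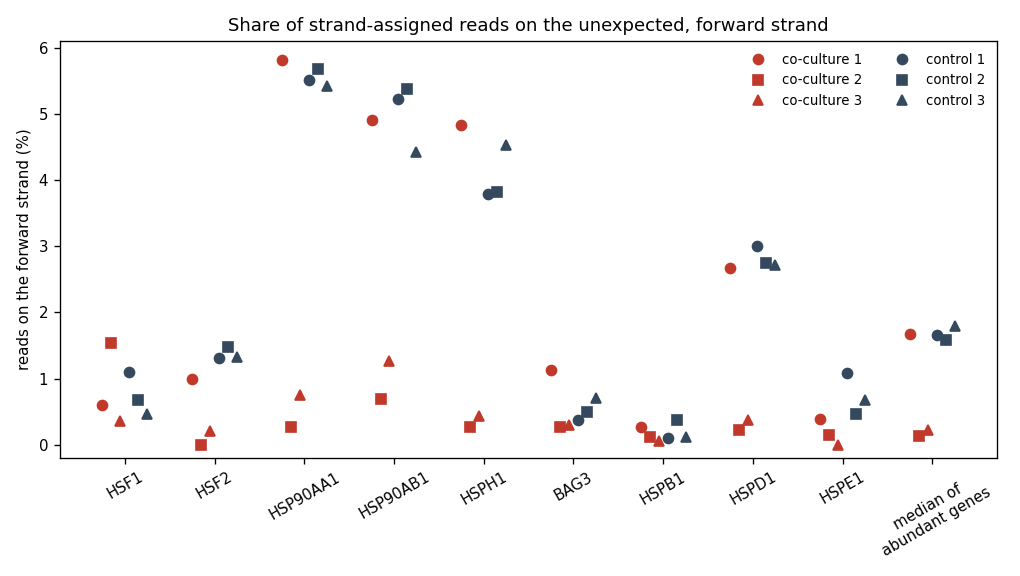
Percent of strand-assigned reads on the forward strand for the 9 tested members and the median of 5032 abundant genes, in each control (dark) and co-culture (red) library. Co-culture libraries 2 and 3 lie at or under 1.53% for every gene shown, and the other 4 reach 5.82% at HSP90AA1.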

How the data were processed

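RNA-seq of 6 libraries of sorted GFP-positive HEK293 cells was analysed. Libraries were made with a stranded mRNA kit, per the labels' protocols, and reads were checked with FastQC and aligned with STAR 2.53a to hg18, per the submitters' processing notes. The annotation release is not given in the sources used here. The authors deposited raw counts of reads per gene, with no normalisation, and the reverse-strand column was used. Unmapped, multimapping, unassigned and ambiguous reads (1.22% to 1.67%, 6.48% to 8.42%, 14.8% to 17.7% and 0.835% to 1.01%) were left out.

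Co-culture was compared with control in edgeR 4.0.16 (R 4.3.3) on all 6 libraries with group as the only term: filterByExpr at a minimum count of 10 (14582 of 23686 genes kept), TMM scaling, robust quasi-likelihood F tests and Benjamini-Hochberg adjustment at 0.05. SEs were derived from the fold change and its F statistic. Ratios of counts within a library were compared by exact permutation. The test was checked on simulated data. Replicates differed by more than sampling noise (chi-square per degree of freedom 4.72 to 18.7). DESeq2 1.42.0, limma-voom (limma 3.58.1), other scalings, filters, counting columns and left-out libraries were alternatives.

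The members and gene lists were chosen with earlier results of these data known. The genes named are the members, list genes past the threshold (at most 6 a list), or the highest and lowest of lists with none, and the 3 genes most like HSF1, HSP90AA1 and HSPH1. Other genes named (HSPA8, AHSA1, STIP1, FKBP4, CHORDC1, PTGES3, HSP90B1, TRAP1, HSPB8, CREBBP and MOB4) were chosen after their values were seen. Symbols are those of the files, and coordinates of printed sequences are RefSeq's for GRCh38.p14, since no coordinates of the counted genes were used.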

Additional observations from a re-analysis of the deposited data

How the results depend on the processing

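No member was called under any of the 14 alternatives, and HSF1, HSP90AA1, HSP90AB1, HSPH1, HSPD1 and BAG3, 6 of the 9 tested, kept 1 direction throughout. The log2 fold change of HSF2 turned to -0.025 with total counts and -0.0103 with a term for strand class, and ran from -0.0306 to 0.0313 with a library left out, below 0 without co-culture 2 or control 3. That of HSPB1 turned to -0.0319 and -0.13 in the same fits and ran from -0.15 to 0.18 with a library left out, below 0 without co-culture 3 or control 3. That of HSPE1 was 0.43 with the strand-class term and ran from -0.13 to 0.21 with a library left out, below 0 without co-culture 1 or control 3. The cause was not tested. The HSPD1 to HSPE1 ratio difference ran from -0.070 (without co-culture 2) to 0.33 over the left-out libraries. The test called 704 genes in all, and the other fits, whose overlap with these was not counted, called 164 with the replicate block, 29 with the strand-class term and 65 to 3069 with a library left out (65 without control 2, 74 without co-culture 2, 123 without co-culture 1, 321 without co-culture 3 and 3069 without control 1). Among the other pathway genes the number called was 5 as reported, 3 with the replicate block, 1 with the strand-class term and 1 to 16 with a library left out (1 without control 2, 2 without co-culture 2 or 3, 3 without co-culture 1 and 16 without control 1). Nothing states whether replicate numbers pair the samples. Deviations of same-numbered libraries from their group means correlated at -0.04, -0.09 and -0.09. With 3 libraries a group, these values cannot show whether such libraries shared a culture or day, and the block is not a test of the pairing. Total counts moved the median gene to -0.04 and the share of higher genes among those called from 55.1% to 35.1%. The depth leaves CRYAB at or below its floor in every library but co-culture 3, with 4 reads.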
